A study of Sorghum bicolor with 63 samples.

Results

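The comparison described here sets the leaf of sorghum (Sorghum bicolor, inbred line BTx623) at the 48 h time point, after nitrate had been given back, against the leaf at the end of 24 h without nitrate. Its members are the 3 libraries of each group, 6 of the 21 leaf libraries and of the 63 libraries of the series. All plants were grown in hydroponic tanks under 16 h of light per day, and entered the treatment at the fifth leaf stage. The 24 h group (nitrogen deprivation) had been moved to a solution whose nitrate salts were replaced, and the 48 h group (nitrogen recovery) had passed through the same deprivation before nitrate was restored. The labels place the last harvest 48 h after the return of nitrate and the study's methods place it 24 h after, and here it is called 48 h as the libraries are named. The 48 h plants were also harvested later than the 24 h plants, so the return of nitrate cannot be told apart from the added time. The second group at that time, called nitrogen recovery control, is described no further by the labels, and its values stand beside those of the members only as a reference. Each library was a pool of leaves from several plants, 5 by the labels; the study's methods give a larger number. P-values therefore rest on the spread between pools, 3 in each group, and in the leaf fit this spread was shared over all 7 leaf groups.

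Nitrate that reaches the leaf is reduced to nitrite by nitrate reductase in the cytosol and to ammonium by nitrite reductase in the plastid, which draws its electrons from ferredoxin. Glutamine synthetase and glutamate synthase (GOGAT) then place the ammonium in glutamine and glutamate, and asparagine synthetase moves the amide nitrogen into asparagine, a form in which plants store and carry nitrogen. Nitrate is also a signal in plants: the NLP transcription factors are known from Arabidopsis to switch on nitrate uptake and assimilation genes when nitrate arrives.

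Expression is given in TPM (a unit scaled to transcript length and to the total of each library). Fold changes are on the scale of log2(TPM + 1), which understates the change of low genes, and are always 48 h minus 24 h. A gene was called when its adjusted p in limma, fitted over all 21 leaf libraries, was under 0.05 and its absolute log2 fold change was over 1. Of 19882 genes tested, 1606 (8.08%) were called, 884 higher (4.45%) and 722 lower (3.63%) at 48 h. The median over all genes was -0.05. Under scaling by the median of ratios the calls numbered 1148 higher and 558 lower, so that 67.3% were higher against 55.0% as reported, and the median became 0.05. Falls outnumbered rises with only the 24 h and 48 h groups in the fit (577 higher, 636 lower), without leaf 24 h replicate 1 (642 higher, 679 lower) and on the adjusted p alone (1572 higher, 1888 lower). The 3 libraries of a group did not overlap those of the other for 5920 genes (29.8%). Between 48 h and the recovery control of the same time, 2 of 19882 genes (0.0101%) were called. That count ranged from 0 to 554 with the setting and the libraries used.

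Leaf identity held in both groups. PPDK2 (SORBI_3009G132900), the pyruvate phosphate dikinase of the C4 cycle, was abundant, with 18966, 17139 and 18644 TPM at 24 h and 15597, 18921 and 21818 TPM at 48 h. The groups overlapped (log2 fold change 0.03, adjusted p = 0.948), and the root libraries of the same times held 11.9 to 184 TPM. The root nitrate transporter genes NRT2.1 (2 copies) and NAR2.1 together gave 1.17 to 1.30 TPM in leaf at 24 h and 0.030 to 0.58 TPM at 48 h.

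Some libraries stood apart from their groups. Leaf 24 h replicate 2 correlated at 0.932 and 0.953 with its own group, whose other libraries correlated at 0.975. Leaf 48 h replicate 3 correlated at 0.944 and 0.961 with its own group and at 0.986 and 0.984 with control replicates 2 and 3, while control replicate 1 correlated at 0.928 and 0.935 with these. The labels give no reason for this, and the part of these libraries in the results was not tested beyond leaving them out: 1954 genes were called without 24 h replicate 2, 1708 without 48 h replicate 3 and 2169 without both, of which 1151 were among the 1606.

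**Figure D1:**
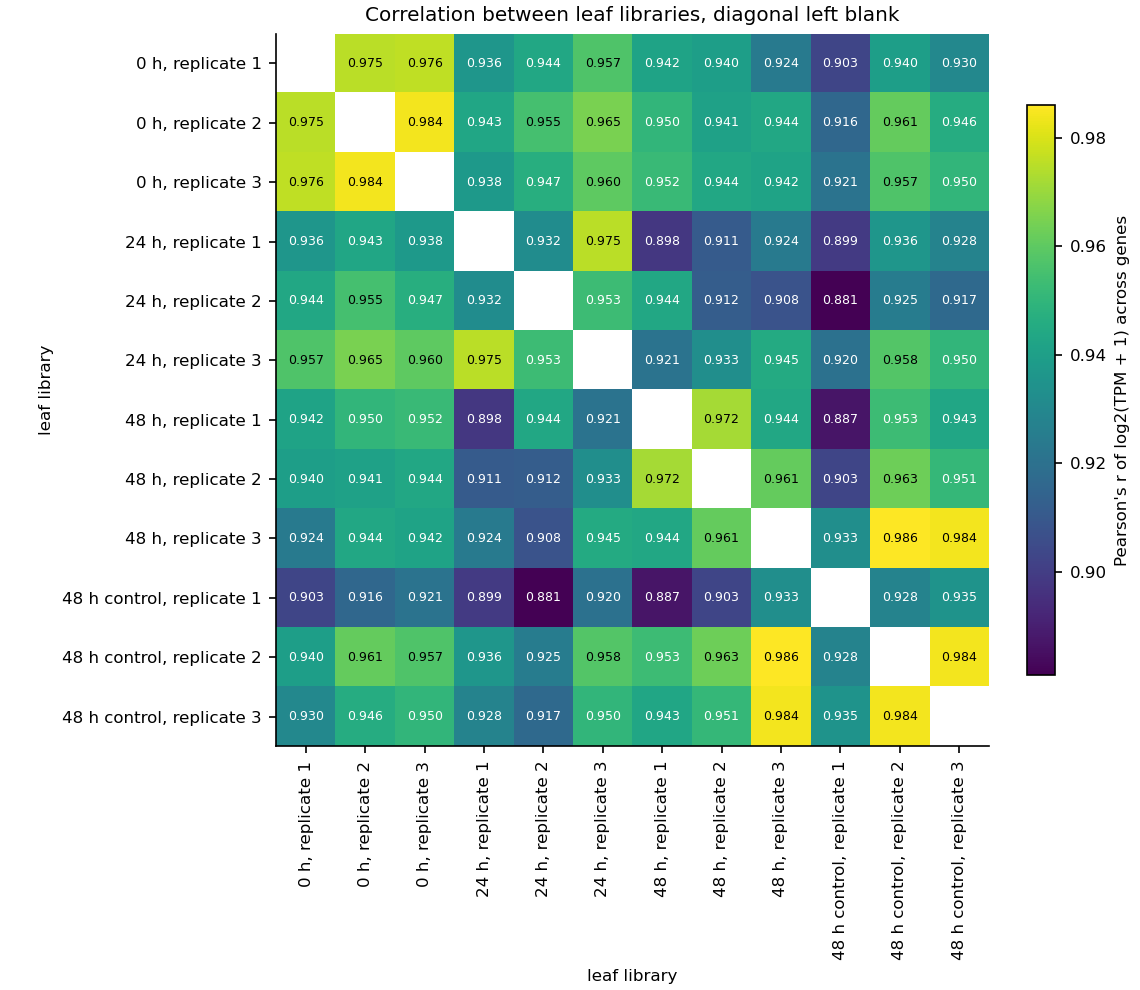
Pearson's r of log2(TPM + 1) across genes between the 12 leaf libraries at 0 h, 24 h, 48 h and 48 h control, each cell 1 pair of libraries and the colour scale giving r. The r of 24 h replicate 2 with its own group is 0.932 and 0.953, and 48 h replicate 3 is closer to control replicates 2 and 3 (0.986 and 0.984) than to its own group.

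The clearest change among nitrogen genes was in asparagine synthetase, where 2 of 3 genes rose and none fell (66.7% called, against 8.08% of all genes). ASN3 (SORBI_3001G406800) measured 1.34, 3.71 and 2.08 TPM at 24 h and 27.4, 30.6 and 94.6 TPM at 48 h. Every 48 h library lay above every 24 h library, and replicate 3 was the highest of them (log2 fold change 3.77, SE 0.66, adjusted p = 0.000856). Its mean was 19.999 TPM at 0 h, 1.65 TPM at 24.5 h, soon after nitrate was returned, and the control libraries ranged over 7.39 to 90.3 TPM. In pooled leaves, a change in the share of cells that express a gene and a change in RNA per cell cannot be told apart.

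A second asparagine synthetase, SORBI_3005G003200, carries the Arabidopsis name DIN6 (dark inducible 6) and measured 0, 0.2497 and 0 TPM at 24 h and 11.5, 12.2 and 6.29 TPM at 48 h. It was listed at 0 or close to it in the 24 h leaf and at several TPM in each 48 h library (log2 fold change 3.303, SE 0.31, adjusted p = 2.88e-06). The control libraries held 0.459 to 3.14 TPM, and DIN6 was 1 of only 2 genes of 19882 (0.0101%) called between 48 h and its control (log2 fold change 1.95, SE 0.31, adjusted p = 0.0489). That comparison shares the 48 h libraries with the present one. It depends on the setting and on which libraries enter: it called 0 genes, DIN6 included, with a pseudocount of 0.1, with a replicate block, and without leaf 48 h replicate 1, leaf 48 h replicate 2 or control replicate 1, and 554 genes without leaf 48 h replicate 3. The remaining asparagine synthetase, ASN1 (SORBI_3010G110000), measured 16.01, 27.8 and 16.3 TPM at 24 h and 39.1, 27.1 and 29.8 TPM at 48 h. It overlapped between the 24 h and 48 h groups and was not called between them (log2 fold change 0.68, adjusted p = 0.0325).

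**Figure D2:**
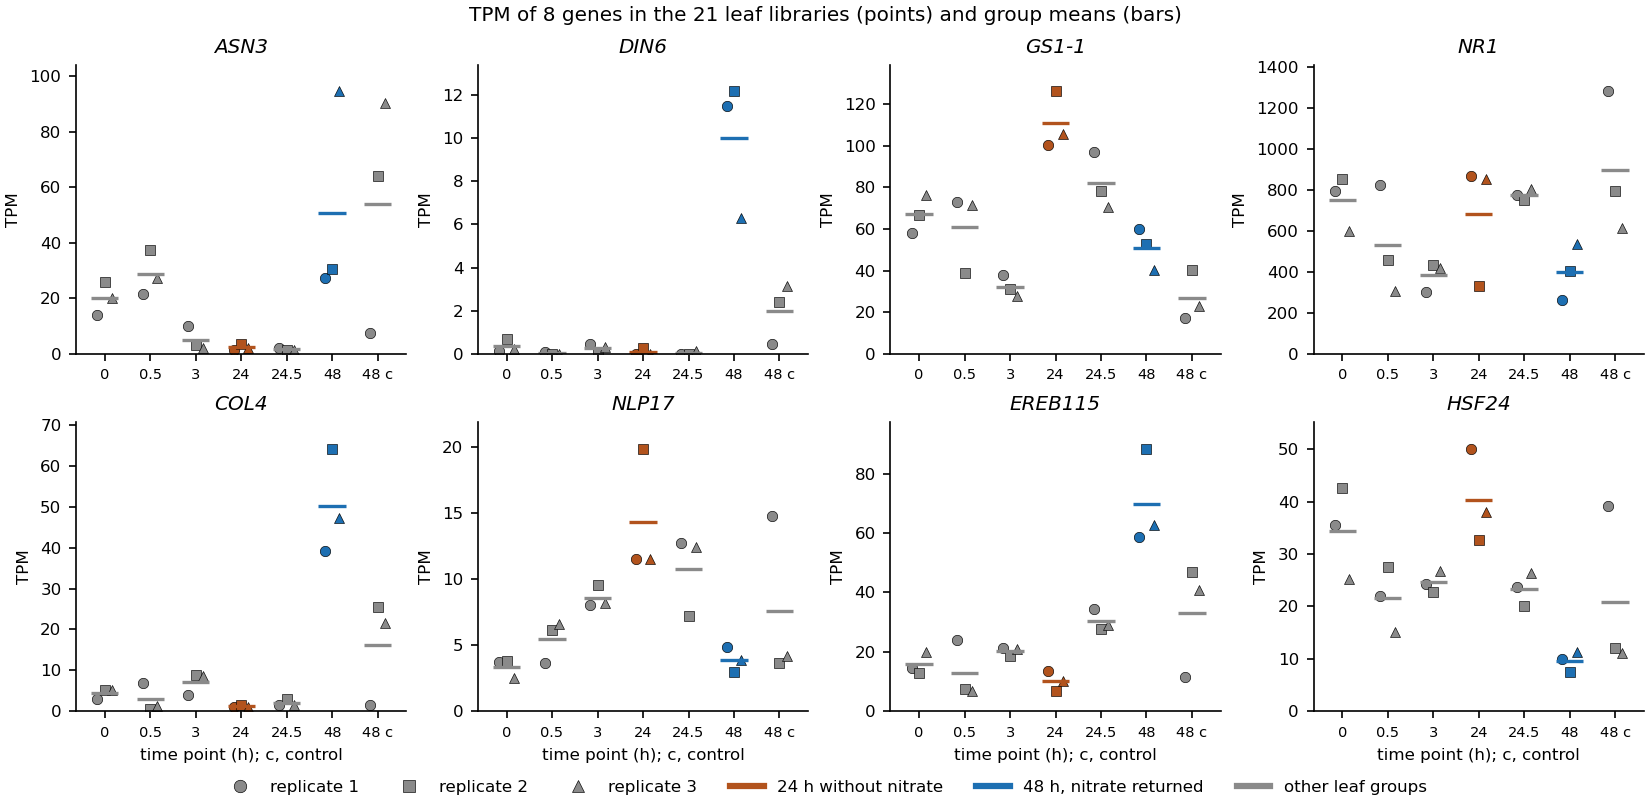
TPM (vertical axis, linear from 0) of 8 genes in the 21 leaf libraries against time point in h, where c is the recovery control; points are libraries, marked by replicate, and bars are means of 3. ASN3, DIN6, COL4 and EREB115 stand higher at 48 h than at 24 h in every library, GS1-1, NLP17 and HSF24 lower in every library, and the 2 groups overlap for NR1.

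The enzymes of nitrate reduction and ammonium assimilation did not move together. Of 14 network genes of this class 11 were tested, none rose and 1 fell (9.09%, near the 8.08% of all genes), with a median log2 fold change of -0.03. The gene that fell was GS1-1 (SORBI_3001G451500), a cytosolic glutamine synthetase, with 101, 126 and 106 TPM at 24 h and 60.01, 52.7 and 40.2 TPM at 48 h. The groups did not overlap (log2 fold change -1.12, SE 0.27, adjusted p = 0.0082), but without leaf 48 h replicate 3 the fold change was -0.96 (adjusted p = 0.0392), under the fold limit. GS1-3, a more abundant glutamine synthetase of the same class, measured 1239.8, 1341 and 1299 TPM at 24 h and 909, 814 and 764 TPM at 48 h. It was lower in each 48 h library without reaching that limit (log2 fold change -0.64, adjusted p = 0.0195).

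The 10 genes that were not called ran from -0.702 for NR1 to 1.06 for NR2, which both encode nitrate reductase. NR1 (SORBI_3007G153900) measured 869, 330.2 and 855 TPM at 24 h and 261, 407 and 535 TPM at 48 h. Its groups overlapped, with 24 h replicate 2 far below the other 24 h libraries, and without that library NR1 was called lower (log2 fold change -1.16, adjusted p = 0.0341). NR2, present at far lower levels, measured 3.71, 1.31 and 3.45 TPM at 24 h and 4.87, 6.12 and 9.49 TPM at 48 h. It was higher in each 48 h library but missed the threshold (adjusted p = 0.0583). NIR1, nitrite reductase, measured 363, 215 and 374 TPM at 24 h and 254, 396 and 452 TPM at 48 h, and its groups overlapped. The remaining 3 genes of the class, NR3, GOGAT3 and GOGAT4, stayed under 1 TPM in every leaf library and were not tested, and GOGAT3 was listed at 0 in 19 of 21.

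Of the 15 genes classed as nitrogen transporters 13 were tested, 1 fell and none rose (7.69%, near the 8.08% of all genes; median 0.10). NPF3.6 (SORBI_3009G136700), of the family of nitrate and peptide transporters, measured 2.67, 1.39 and 3.23 TPM at 24 h and 0.432, 0.476 and 0.4597 TPM at 48 h. The groups did not overlap, at levels near the filter (log2 fold change -1.196, SE 0.29, adjusted p = 0.00924). The other 12 lay between -0.91 for NRT2.5, a high affinity nitrate transporter, and 0.700 for NPF4.7. The second NRT2.1 copy and NPF4.9 did not pass the filter. NRT1.1, the dual affinity transporter and nitrate sensor of Arabidopsis, measured 75.8, 27.3 and 65.7 TPM at 24 h and 36.1, 69.8 and 67.3 TPM at 48 h, and its groups overlapped. Genes that supply reductant were not called: G6PD1, which starts the oxidative pentose phosphate pathway, measured 7.13, 13.6 and 9.697 TPM at 24 h and 20.2, 15.99 and 26.1 TPM at 48 h and stayed just under the fold limit (log2 fold change 0.98, adjusted p = 0.0142).

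**Figure D3:**
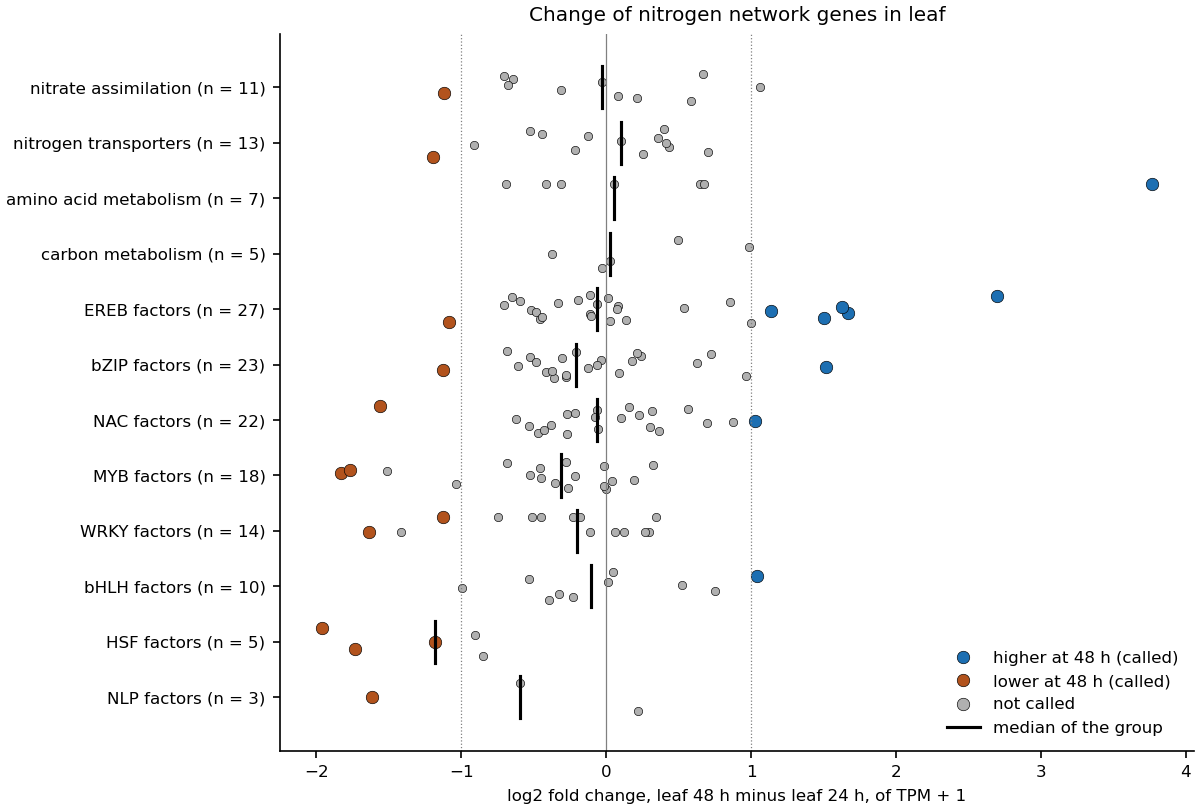
Log2 fold change of TPM + 1, leaf 48 h minus leaf 24 h (horizontal axis), of the tested genes of 4 classes and 8 factor families of the nitrogen network; each point is a gene, blue called higher, brown called lower, grey not called, the black bar is the median and dotted lines mark 1 and -1. Nitrate assimilation and transport genes gather around 0 with 1 lower call each, EREB factors reach 2.699 (EREB115), and the median of the HSF factors is -1.18.

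The regulators of nitrate responses that were called all fell. Of 5 tested, 2 fell and none rose, a small count beside the 8.08% of all genes called. The log2 fold changes of the 5 did not share a direction. They ran from -1.62 to 0.78, the highest in a gene that was not called. NLP17 (SORBI_3002G287400) measured 11.5, 19.9 and 11.5 TPM at 24 h and 4.81, 2.97 and 3.88 TPM at 48 h. All 48 h libraries lay below all 24 h libraries (log2 fold change -1.62, SE 0.36, adjusted p = 0.00521), and the 0 h mean was 3.34 TPM. The control libraries held 14.8, 3.64 and 4.20 TPM of NLP17. NLP7 (62.5, 89.96 and 62.7 TPM at 24 h and 54.3, 38.4 and 47.7 TPM at 48 h) was lower in each 48 h library with a smaller change (log2 fold change -0.597, adjusted p = 0.0348), and NLP6 overlapped (0.22). The other gene called was SORBI_3003G385100, described as a BTB/POZ and TAZ domain protein, a family whose Arabidopsis members include nitrate responsive scaffold proteins. It measured 30.2, 30.8 and 23.1 TPM at 24 h and 10.7, 9.09 and 9.49 TPM at 48 h (log2 fold change -1.42, SE 0.17, adjusted p = 3.46e-05).

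Over the whole network, 202 of 255 transcription factors were tested, of which 10 rose and 13 fell (11.4% called, against 8.08% of all genes). The strongest rise was that of COL4 (SORBI_3010G108500), a CONSTANS-like factor, with 1.083, 1.51 and 1.077 TPM at 24 h and 39.3, 64.3 and 47.3 TPM at 48 h. It was near 1 TPM in each 24 h library and at least 39.3 TPM in each 48 h library (log2 fold change 4.51, SE 0.66, adjusted p = 0.000208). The control libraries held 1.57 to 25.5 TPM, and the 0 h mean was 4.38 TPM.

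Ethylene response factors (EREB) gave 5 of the 10 rises, with 27 tested and 1 lower (22.2% called, against 8.08% of all genes). EREB115 (SORBI_3002G269400) measured 13.7, 6.58 and 10.2 TPM at 24 h and 58.7, 88.5 and 62.6 TPM at 48 h (log2 fold change 2.699, SE 0.44, adjusted p = 0.000473). Its control libraries held 11.3, 46.9 and 41.0 TPM. EREB102 was the most abundant of the 5, with 135, 115 and 126 TPM at 24 h and 325, 298 and 467 TPM at 48 h (log2 fold change 1.503, SE 0.19, adjusted p = 6.86e-05). EREB198 measured 24.3, 6.45 and 18.99 TPM at 24 h and 27.7, 57.9 and 70.9 TPM at 48 h, and EREB47 measured 20.7, 9.21 and 19.1 TPM at 24 h and 27.2, 57.9 and 77.7 TPM at 48 h. In both, 24 h replicate 2 was the lowest library and 48 h replicate 1 was the closest to the 24 h group (log2 fold change 1.67, adjusted p = 0.0133, and log2 fold change 1.62, adjusted p = 0.00138). The smaller change of EREB126 (1.14) and the fall of EREB24 (-1.09) complete the family. The 6 calls became 3 without leaf 48 h replicate 2 and 2 with only the 24 h and 48 h groups in the fit.

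Heat stress factors gave 3 lower calls of 5 tested and none higher, a small count beside the 8.08% of all genes called. All 5 log2 fold changes were negative, from -1.96 to -0.85, with a median of -1.18. HSF24 (SORBI_3001G243000) measured 50.1, 32.7 and 38.04 TPM at 24 h and 9.92, 7.47 and 11.3 TPM at 48 h (log2 fold change -1.96, SE 0.34, adjusted p = 0.000848). HSF20 measured 6.88, 6.03 and 8.91 TPM at 24 h and 0.782, 1.76 and 2.03 TPM at 48 h (log2 fold change -1.74, SE 0.42, adjusted p = 0.00896). HSF13, with 78.4, 39.01 and 68.8 TPM at 24 h and 20.3, 32.3 and 25.7 TPM at 48 h, was called at a log2 fold change of -1.18 (adjusted p = 0.0245) and was not called without leaf 24 h replicate 1 (-0.99, adjusted p = 0.102). HSF26 and HSF10 had log2 fold changes of -0.902 and -0.85 and were not called.

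Among MYB factors 2 of 18 (11.1%) fell and none rose, a small count beside the 8.08% of all genes. MYB139 measured 35.7, 21.96 and 39.1 TPM at 24 h and 7.19, 8.58 and 8.54 TPM at 48 h (log2 fold change -1.83, SE 0.27, adjusted p = 0.000249), and MYB64 measured 10.5, 4.7997 and 7.31 TPM at 24 h and 1.5996, 1.802 and 0.934 TPM at 48 h (log2 fold change -1.77, SE 0.35, adjusted p = 0.00231). Of 14 WRKY factors tested 2 (14.3%) were called, both lower, which is again a small count. WRKY15 measured 307, 165 and 291 TPM at 24 h and 74.1, 122 and 154 TPM at 48 h (log2 fold change -1.13, SE 0.35, adjusted p = 0.0317), and WRKY104 measured 3.899, 1.14 and 4.56 TPM at 24 h and 0.284, 0.416 and 0.0682 TPM at 48 h (log2 fold change -1.63, SE 0.45, adjusted p = 0.0171). In neither did the groups overlap, and 24 h replicate 2 was the 24 h library nearest to the 48 h group. Both calls were lost with 1 library left out: WRKY15 had -0.83 (adjusted p = 0.134) without leaf 48 h replicate 1, and WRKY104 had -1.37 (adjusted p = 0.0698) without leaf 24 h replicate 3.

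NAC and bZIP factors gave 1 call each way, 2 of 22 (9.09%) and 2 of 23 (8.70%), shares near the 8.08% of all genes. NAC49 fell, with 54.3, 39.98 and 55.5 TPM at 24 h and 14.7, 15.6 and 18.04 TPM at 48 h (log2 fold change -1.56, SE 0.32, adjusted p = 0.00307), and NAC40 rose (1.03). For bZIP111 the libraries held 42.02, 69.2 and 49.9 TPM at 24 h and 161, 132 and 166 TPM at 48 h, a rise (log2 fold change 1.52, SE 0.28, adjusted p = 0.00135), and bZIP27 fell (-1.12). ARF3, an auxin response factor, measured 18.9, 19.1 and 15.7 TPM at 24 h and 5.82, 4.48 and 3.87 TPM at 48 h (log2 fold change -1.73, SE 0.25, adjusted p = 0.000206). LOG2, whose family releases active cytokinin from its nucleotides, measured 51.7, 58.7 and 45.9 TPM at 24 h and 19.9, 22.2 and 15.2 TPM at 48 h and fell as well (log2 fold change -1.41, SE 0.36, adjusted p = 0.0118).

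**Figure D4:**
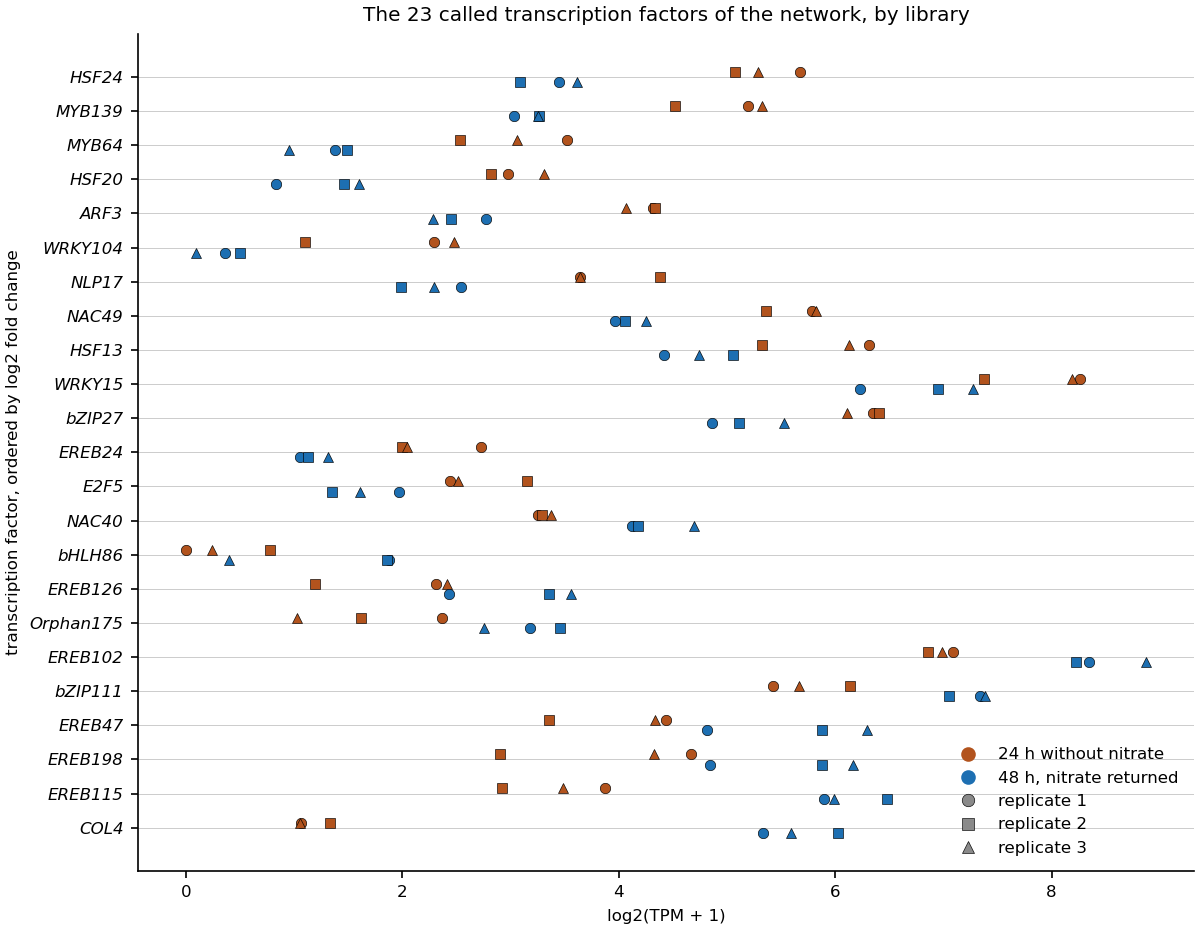
Log2(TPM + 1) (horizontal axis) of the 23 called transcription factors of the network, ordered by log2 fold change; brown points are the 24 h and blue points the 48 h libraries, with the marker giving the replicate. The falls run from HSF24 (-1.96) and the rises up to COL4 (4.51), and bHLH86 is the factor whose 48 h replicate 3 lies among the 24 h libraries.

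Outside the network, names came from gene descriptions in the study's own tables of genes that responded in these samples. The share called among them is therefore not independent evidence: of 282 tested, 37 rose and 26 fell (22.3%, against 8.08% of all genes). Within hormone metabolism, a group assembled after its values were seen, 3 of 5 genes fell and none rose. SORBI_3003G379500, described as similar to a gibberellin C20 oxidase, an enzyme late in gibberellin synthesis, measured 25.97, 3.504 and 28.1 TPM at 24 h and 0.149, 0.258 and 0.816 TPM at 48 h. The 24 h libraries were themselves divided, with replicate 2 far below the others (log2 fold change -3.47, SE 0.87, adjusted p = 0.0109), and without leaf 24 h replicate 1 the adjusted p was 0.051. CYP707A4 (SORBI_3002G225400), named for an Arabidopsis enzyme that breaks down abscisic acid, measured 111, 88.7 and 101 TPM at 24 h and 18.1, 17.96 and 17.2 TPM at 48 h. Both groups were tight (log2 fold change -2.43, SE 0.31, adjusted p = 8.46e-05), and the control libraries ranged over 40.2 to 139 TPM.

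In plastid and pigment metabolism, SORBI_3008G180800, similar to phytoene synthase 1, the enzyme of the first step committed to carotenoids, measured 215, 192 and 204 TPM at 24 h and 29.95, 30.9 and 19.05 TPM at 48 h. It was lower in each 48 h library (log2 fold change -2.92, SE 0.30, adjusted p = 8.39e-06), and the mean at 24.5 h was already 58.3 TPM, while the control libraries held 7.74 to 21.8 TPM. Protein MET1 (SORBI_3002G047400), known from Arabidopsis to help assemble photosystem II, measured 2433, 2589 and 2501 TPM at 24 h and 1270.0, 1219 and 1166 TPM at 48 h (log2 fold change -1.04, SE 0.18, adjusted p = 0.000737). The light-regulated protein gene SORBI_3003G107300 went up, with 349, 256 and 369.8 TPM at 24 h and 1110.1, 1336 and 1879 TPM at 48 h (log2 fold change 2.13, SE 0.21, adjusted p = 7.77e-06). None of 6 light harvesting genes was called (median 0.24).

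Carbohydrate genes were divided. Sucrose synthase 2 (SORBI_3001G344500), which cleaves sucrose, measured 1.41, 2.92 and 1.52 TPM at 24 h and 15.9, 15.2 and 31.3 TPM at 48 h (log2 fold change 2.85, SE 0.39, adjusted p = 0.000113). ISA2 (SORBI_3009G127500), of the isoamylase family by its name, measured 13.3, 13.7 and 11.95 TPM at 24 h and 4.47, 4.59 and 3.03 TPM at 48 h (log2 fold change -1.49, SE 0.28, adjusted p = 0.00143). The other 4 tested genes of the sucrose and starch list were not called.

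Of the 2 tested genes of the phosphate list, phosphate transporter 4;5 fell and PAP7 was not called (-0.24). Neither of the 2 tested sulfate transporters was called (-0.64 and 0.02). Outside that list, PPa4 (SORBI_3009G016000), a soluble pyrophosphatase by its Arabidopsis name, measured 277, 309 and 287 TPM at 24 h and 72.4, 55.9 and 59.7 TPM at 48 h, a fall with little spread (log2 fold change -2.21, SE 0.18, adjusted p = 6.57e-07). Phosphate transporter 4;5 (SORBI_3002G293500) measured 101, 141 and 91.9 TPM at 24 h and 45.6, 34.9 and 39.5 TPM at 48 h (log2 fold change -1.43, SE 0.18, adjusted p = 5.62e-05). Both described homocysteine S-methyltransferases, which make methionine and were grouped after their values were seen, rose: gene 1 (SORBI_3001G453100) measured 0.828, 4.77 and 3.76 TPM at 24 h and 15.2, 13.9 and 12.9 TPM at 48 h (log2 fold change 2.02, SE 0.35, adjusted p = 0.000856), and gene 3 (SORBI_3008G161700) rose by 1.47 on the log2 scale.

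The 10 largest rises and 10 largest falls among well expressed genes were mostly genes to which the tables used here give no name, 9 of the rises and 8 of the falls. SORBI_3003G163700 measured 1.97, 1.29 and 5.61 TPM at 24 h and 178, 162 and 206 TPM at 48 h (log2 fold change 5.68, SE 0.40, adjusted p = 1.68e-07), and SORBI_3003G163500 measured 1.36, 2.89 and 1.03 TPM at 24 h and 114, 102 and 126 TPM at 48 h (log2 fold change 5.43, SE 0.50, adjusted p = 2.81e-06). Both were low in every 24 h library. SORBI_3002G338800 fell, with 87.2, 47.1 and 90.6 TPM at 24 h and 1.19, 1.67 and 1.05 TPM at 48 h (log2 fold change -4.996, SE 0.88, adjusted p = 0.000863), and SORBI_3003G339200 fell from a very high level, with 1435, 1385 and 1449 TPM at 24 h and 98.7, 80.3 and 58.96 TPM at 48 h (log2 fold change -4.18, SE 0.78, adjusted p = 0.00146). The named genes among the largest changes were COL4, the gibberellin oxidase and a WRKY repressor, SORBI_3002G202700, which measured 45.1, 13.3 and 44.3 TPM at 24 h and 3.32, 3.26 and 2.72 TPM at 48 h (log2 fold change -2.92, SE 0.70, adjusted p = 0.00828).

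A few called genes rested on 48 h replicates 1 and 2, and are named here after their values were seen. CRR1 (SORBI_3001G531800), of the chloroplast NDH complex in Arabidopsis, measured 0.0699, 2.55 and 0.816 TPM at 24 h and 19.3, 14.97 and 1.43 TPM at 48 h, and the control libraries held 1.74 to 2.002 TPM. EGY1 (SORBI_3001G061600), a chloroplast metalloprotease, measured 0, 0.944 and 0.123 TPM at 24 h and 7.38, 7.78 and 0.874 TPM at 48 h, and the control held 0.669 to 1.39 TPM. In both, 48 h replicate 3 lay within the range of the 24 h libraries.

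None of the 3 clock genes that the names used here identify was called. All 3 log2 fold changes were negative. The groups did not overlap for 2 of the genes, GIGANTEA included by a narrow margin, a small count beside the 29.8% of all genes. GIGANTEA (SORBI_3003G040900), which cycles over the day in plants, measured 167, 202 and 168 TPM at 24 h and 147, 122 and 165 TPM at 48 h (log2 fold change -0.31, adjusted p = 0.423). FKF1 and APRR1 had log2 fold changes of -0.69 and -0.54. The hour of harvest is not in the labels, and a p above the threshold does not show that the groups were taken at the same hour.

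The change in leaf was then compared with that in the roots of the same groups by an interaction over 12 libraries each. Against primary root, 1422 of 18500 genes (7.69%) differed, 576 higher (3.11%) and 846 lower (4.57%) in leaf, and against lateral root 1851 of 18565 (9.97%), 702 higher (3.78%) and 1149 lower (6.19%). With scaling by the median of ratios the splits were 859 to 681 and 914 to 924. Genes of high affinity nitrate uptake were among the largest differences; against primary root 3 genes without a name, which lay between 5.86 and 6.29, stood beside them, but their SD over the 3 root libraries at 24 h (208 to 321 TPM) exceeded their mean (168 to 260.2 TPM). NRT2.1 (SORBI_3004G009400) measured 1.16, 0.277 and 0.192 TPM at 24 h and 0.103, 0 and 0 TPM at 48 h in leaf, while its mean went from 124 to 0.268 TPM in primary root and from 295 to 2.61 TPM in lateral root. The differences of the changes, leaf minus root, were 6.08 (SE 0.34, adjusted p = 7.16e-06) and 5.74 (SE 0.45, adjusted p = 4.01e-05). The root levels dropped, and no leaf library of these groups exceeded 1.16 TPM, so that the difference restates the fall in root beside a leaf level close to 0. NRT2.5 differed likewise, by 4.14 and 5.06.

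NR2, not called in leaf, fell in the roots. It went down in primary root from a mean of 284 to 112 TPM and in lateral root from 390.0 to 119 TPM, and the leaf change exceeded these by 2.42 (SE 0.41, adjusted p = 0.00507) and 2.73 (SE 0.43, adjusted p = 0.00184). GS1-1 rose in lateral root, from 360.3 to 928 TPM, and differed there by -2.52 (SE 0.41, adjusted p = 0.00233), a call lost with all 14 groups in the fit (adjusted p = 0.223). That fit takes in the lateral root 0 h libraries, whose mean correlations with their own group were 0.588, 0.776 and 0.764. The part of these libraries was not tested. ASN3 was far more abundant in primary root, with means of 508 and 568 TPM, and its leaf change was 3.604 higher (SE 0.55, adjusted p = 0.00279). NLP17 fell in both roots too, by 1.21 and by 1.47 on the log2 scale, and no difference from leaf was called (-0.41, SE 0.31, and -0.15, SE 0.30). WRKY15 rose in both roots and differed by -2.82 and -2.90. In the lateral root libraries leaf markers also moved between these groups: the 6 light harvesting genes summed to 11.6 to 28.5 TPM at 24 h and 34.6 to 438 TPM at 48 h, and their part in the differences from lateral root was not tested.

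**Figure D5:**
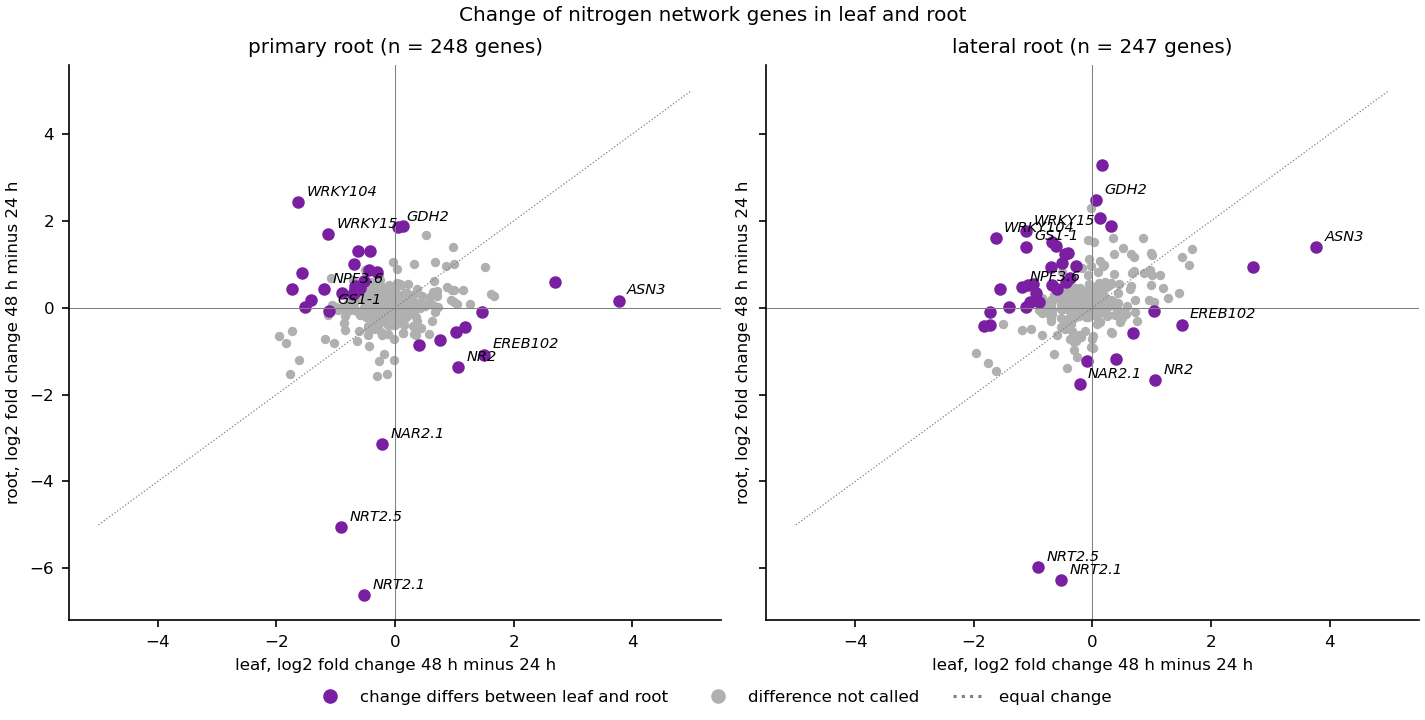
Log2 fold change 48 h minus 24 h of nitrogen network genes in leaf (horizontal axis) and in primary root (left, n = 248) or lateral root (right, n = 247; vertical axes), each point a gene, with called differences coloured. NRT2.1 and NRT2.5 lie at -0.53 and -0.91 in leaf, neither called, and between -5.05 and -6.61 in the roots, while WRKY15 and WRKY104 lie below 0 in leaf and above 0 in both roots.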

How the data were processed

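RNA was sequenced from leaf, primary root and lateral root of BTx623, and 1 table per tissue was deposited, with 35567 genes and 1 column per library. Per the labels the authors trimmed reads with Trimmomatic, aligned them with STAR, quantified them with StringTie and tested them with DESeq2; versions are not given in the sources used here. The deposited values are TPM, which the authors had scaled to 1000000 per library, so sequencing depth is unknown, no counting interval can be given, and a gene's TPM also moves when abundant transcripts change. A count model was not used.

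Groups came from the labels, and 0 per-sample columns were left unused. Values were transformed to log2(TPM + 1) after keeping genes with TPM of at least 1 in at least 3 of 21 leaf libraries. All 7 leaf groups were fitted with limma 3.58.1 in R 4.3.3 (empirical Bayes with a trend), and p-values were adjusted by Benjamini-Hochberg over all tested genes. Leaf was compared with each root by an interaction over the 24 h and 48 h groups, 12 libraries per fit. Figures and summaries used Python 3.11.15, pandas 2.3.3, numpy 2.4.6 and matplotlib 3.10.9. The scripts were tested on simulated data.

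Network classes and symbols came from the study's network table (319 IDs) and descriptions from its tables of responding genes, 661 IDs in all; 0 IDs matched the RefSeq gene table, so no sequence is shown. Product-name lists were planned for that table and were instead matched to these descriptions, which are partial. Called genes of a list were named in full up to 4 by size of change among those whose libraries did not overlap, with the 10 largest changes each way at a mean of at least 5 TPM in the higher group, of which at most 2 each way by ID alone, and the largest differences from root. The members and lists were chosen with earlier results of these data known, and the name patterns were settled with the values in view. The lists for hormones, methionine, photosystems, pentatricopeptide proteins and lignin were added after values were seen. The heat shock and cytokinin lists had no tested member. Alternatives were another pseudocount (0.1), filter, scaling and set of groups, a replicate block, and leaving out libraries; leaving out 2 libraries together, and all alternatives of the comparison with the recovery control, were chosen after seeing the data.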

Additional observations from a re-analysis of the deposited data

Results flagged for a closer look

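The results below were taken up because the change from 24 h to 48 h differed between leaf and a root in the interaction test of limma (adjusted p from 7.16e-06 to 0.0463); each value is the leaf change minus the root change on the scale of log2(TPM + 1), against primary root first and lateral root second where both are given.

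Among nitrate uptake genes the difference was 6.08 and 5.74 for NRT2.1, 4.14 and 5.06 for NRT2.5, and 2.92 and 1.55 for NAR2.1. The leaf level was close to 0, since the NRT2.1 pair and NAR2.1 together gave at most 1.30 TPM in leaf at 24 h and 0.58 TPM at 48 h. The transporter NPF2.3 gave 1.25 and 1.57, and NPF3.6 gave -1.63 and -1.67. In assimilation, NR2 gave 2.42 and 2.73, and GS1-1 gave -1.05 and -2.52. For amides and glutamate, ASN3 gave 3.604 and 2.38, ASN1 gave 1.26 against lateral root (not called against primary root, 0.78), and the glutamate dehydrogenases gave -1.72 and -1.67 (GDH1) and -1.80 and -2.41 (GDH2). In leaf GDH1 and GDH2 changed by only -0.41 and 0.05, under the fold limit. In primary and lateral root GDH1 rose by 1.31 and 1.25, and GDH2 by 1.85 and 2.47.

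Among transcription factors, WRKY15 gave -2.82 and -2.90, WRKY104 gave -4.07 and -3.24, the WRKY repressor SORBI_3002G202700 gave -5.68 and -5.20, and EREB102 gave 2.58 and 1.89. The SOUL heme-binding gene SORBI_3003G357800 gave -2.47 and -3.02. MET1 gave -2.64 against lateral root (not called against primary root, -1.71). Its mean in lateral root was 2.82 TPM at 24 h and 11.4 TPM at 48 h. Leaf markers moved the same way there, the 6 light harvesting genes from a sum of 11.6 to 28.5 TPM at 24 h to 34.6 to 438 TPM at 48 h and PPDK from 11.9 to 37.6 TPM to 24.5 to 131 TPM, and their part in the MET1 and SOUL values was not tested.

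Of genes without a name, SORBI_3002G338800 gave -5.05 against primary root, where it averaged 0 TPM at 24 h and 0.0394 TPM at 48 h, beside a leaf change of -4.996. SORBI_3003G339200 gave -3.85 and -6.12, SORBI_3003G163700 gave 5.14 and 4.69 with root means of at most 1.31 TPM, and 1 further gene gave 3.79 against lateral root.

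The difference of GS1-1 from primary root was not called under another pseudocount (-1.07, adjusted p = 0.0546) or without any 1 of several libraries, and that from lateral root was not called with all 14 groups in the fit (adjusted p = 0.223). That of ASN3 from lateral root was not called without leaf 24 h replicate 1 (2.15, adjusted p = 0.0583) or with all 14 groups in the fit (adjusted p = 0.23), and those of NAR2.1 were not called with a pseudocount of 0.1 (2.598, adjusted p = 0.138, against primary root and 1.21, adjusted p = 0.487, against lateral root). The fit of 14 groups against lateral root took in the lateral root 0 h libraries, whose mean correlations with their own group were 0.588 to 0.776.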

How the results depend on the processing

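The calls between 48 h and 24 h numbered 1606 as reported and 1255 to 1954 with 1 library left out. They numbered 1941 with a pseudocount of 0.1, 1362 with no filter, 1217 with a mean TPM of at least 5, 1706 under median-of-ratios scaling and 1213 with only the 24 h and 48 h groups; on the adjusted p alone they were 3460. The comparison with the recovery control, 2 as reported, gave 0 with a pseudocount of 0.1 and 0 to 554 with 1 library left out; 2560 genes had an unadjusted p under 0.05 there. Leaf against primary root ranged from 906 to 1695 with 1 library left out and leaf against lateral root from 1216 to 2658, and the latter gave 804 with all 14 groups in the fit. Those 14 groups include lateral root 0 h, whose libraries had mean correlations of 0.588 to 0.776 with their own group. The cause of these shifts was not tested.

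Libraries of the 2 groups share replicate numbers only: deviations of same-numbered libraries correlated at -0.39, -0.21 and 0.33. With a replicate block the calls were 1560, and 1102 and 1261 against the roots, and 0 against the recovery control.

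Genes that were not called changed sign as follows. GOGAT1 became 0.086 under median-of-ratios scaling and 0.12 under quantile normalization, and ranged from -0.16 to 0.076 with libraries left out (0.05 without 24 h replicate 2). With libraries left out, alone or as the pair of 24 h replicate 2 and 48 h replicate 3, the ranges were -0.48 to 0.404 for NRT1.1, -0.22 to 0.46 for NIR1, -0.102 to 0.36 for the GOGAT2 copy SORBI_3007G174600, -0.56 to 0.14 for AMT1.3, -0.44 to 0.010 for NAR2.1, -0.25 to 0.85 for AMT1.1a and -0.22 to 0.697 for AMT2.4. Depth is unknown, so how far counting error limits genes near 1 TPM cannot be given.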

Other observations

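Other described genes, chosen after their values were seen, also changed. The auxin responsive SAUR gene SORBI_3002G284600 measured 2.55, 0 and 0.599 TPM at 24 h and 16.1, 15.01 and 18.5 TPM at 48 h (log2 fold change 3.29, SE 0.54, adjusted p = 0.000527). The tonoplast aquaporin TIP2-1 (SORBI_3010G146100), a water channel of the vacuole, measured 21.5, 21.5 and 22.3 TPM at 24 h and 122, 114 and 66.7 TPM at 48 h (log2 fold change 2.11, SE 0.33, adjusted p = 0.000354). Phytochrome A (SORBI_3001G111500), a red and far-red light receptor, measured 62.9, 98.4 and 62.8 TPM at 24 h and 182, 153 and 269 TPM at 48 h (log2 fold change 1.41, SE 0.28, adjusted p = 0.00258). In none of these did the groups overlap, and each rose.

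The splicing factor SR45a (SORBI_3001G426800) fell, with 64.2, 93.2 and 66.1 TPM at 24 h and 19.99, 14.7 and 16.1 TPM at 48 h (log2 fold change -2.06, SE 0.23, adjusted p = 1.50e-05). The SOUL heme-binding gene SORBI_3003G357800 measured 97.6, 56.7 and 105 TPM at 24 h and 19.5, 23.5 and 17.3 TPM at 48 h and fell as well (log2 fold change -2.01, SE 0.41, adjusted p = 0.00254). Allantoinase (SORBI_3006G270100), an enzyme of purine breakdown that frees nitrogen for reuse, measured 66.9, 113 and 66.6 TPM at 24 h and 37.9, 30.1 and 36.4 TPM at 48 h (log2 fold change -1.18, SE 0.37, adjusted p = 0.0331), and its 0 h mean was 26.3 TPM.

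Of the lists assembled after values were seen, photosystem and electron transport genes gave 2 rises and 1 fall of 22 tested, pentatricopeptide repeat proteins 1 rise and no fall of 9, methionine metabolism 2 rises and no fall of 4, and lignin enzymes 1 fall and no rise of 3, against 8.08% called among all genes. These lists draw on the study's own tables of responding genes and are not independent evidence.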
